A study of Mus musculus with 908 samples.

Results

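Tubulin is described here through 10 genes, the α-tubulins Tuba1a, Tuba1b, Tuba1c and Tuba4a and the β-tubulins Tubb2a, Tubb2b, Tubb3, Tubb4b, Tubb5 and Tubb6, measured cell by cell in squamous carcinomas of mouse skin. They were picked by symbol, 10 of the 46517 gene rows in the tables, and each symbol matched 1 row. The list and the relation to the proliferation marker Mki67 were chosen with the levels of these genes in the same cells known. All levels, fold changes and the relation to Mki67 are therefore descriptions, and no test supports them.

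An α- and a β-tubulin protein form the dimer from which microtubules are built, and vertebrates carry several genes for each, called isotypes. Microtubules carry cargo and give an interphase cell its shape, and in mitosis they form the spindle that pulls the chromosomes apart. Cells hold their tubulin mRNA in check by autoregulation, in which free dimers lead, through the factor encoded by Ttc5, to decay of tubulin mRNAs that are being translated. In epidermal keratinocytes the microtubule array is rebuilt when cells stop dividing and differentiate.

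Each library was made from 1 sorted well with Smart-seq2, a full-length cDNA protocol, and libraries with at least 2000 detected genes were used, from plates with 554 wells of the 908 in the series. A gene was called detected at 1 TPM or more, where TPM (a transcript's share of a library scaled to a fixed total) is the unit of all levels. Cells after adoptive cell transfer, an immunotherapy with infused immune cells, numbered 87 on plate OT2 and 90 on plate OT_B. By the strain labels their mice carried TRE-OVA, TRE-HrasG12V and PGK-rtTA3P2AmCherry, and mCherry+ cells were sorted. The other groups came from tumours before transfer in mice labelled TRE-HrasG12V and SBE-mCherry-PGK-rtTA3, in which SMAD-binding elements drive mCherry as a reporter of TGF-β signalling. They were reporter-positive cells (73 on plate CSC1 and 32 on plate CSC2, integrin α6+, mCherry+, CD34+ and CD44+), 15 CD44+ reporter-negative cells (α6+, CD34-), 91 CD44-negative α6+ cells (mCherry-, CD34-) and 43 α6-negative cells (mCherry-, CD34-, CD44-). All groups thus share the inducible activated Hras transgene, animals of 60 to 90 days after birth, and gates that excluded CD45, CD117, CD140a and CD31. The labels name no animal, so each group counts as 1 sample and nothing was tested between groups. Before and after transfer differed in strain, reporter, gate and plates as well as in therapy, which cannot be told apart.

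Some facts of the libraries touch the results below. Median gene numbers per plate ran from 5521 for the α6-negative cells to 7769 for CSC1. The least complex library used had 2026 genes and a summed tubulin of 361.3 TPM, and the most complex one left out had 1962 genes and 315.8 TPM. Ribosomal rows held between 66.1% (CSC2) and 76.4% (OT_B) of the total at the plate medians, so other genes are shares of the remainder. Keratinocyte markers led in every library of the after-transfer, reporter-positive and CD44-negative α6+ groups, but in 12 of 15 of the CD44+ gate and 26 of 43 of the α6-negative gate, where fibroblast, pericyte or Schwann cell markers led in the others. In the CD44+ gate the keratinocyte list summed to between 0 and 18801 TPM, and the Schwann cell list reached 1227 TPM, against at most 27.5 TPM in the CD44-negative α6+ gate. Libraries with Xist and no Y-linked transcripts numbered 12 among CD44+ reporter-negative and 42 among CD44-negative α6+ cells, and the last group held 44 with Y-linked transcripts only. On CSC1, CSC2, OT2, OT_B and the α6-negative plate no library had Xist without Y-linked transcripts. Plates OT_C, OT_D, OT_A and OT1 hold libraries with the well names of CSC1, of CSC2 and the CD44+ gate, of OT2 and of OT_B, most of which matched as second libraries of the same cells. OT_C and OT_D are labelled after transfer although their partners are labelled before it, and nothing in the tables decides between the 2 labels. They were left out of the group comparisons, and the comparison they touch is also given with every library under its own label.

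By the GENCODE M21 annotation of mm10, all 10 are protein-coding genes. Tuba1b (chr15:98931425-98934565), Tuba1a (chr15:98949837-98953703) and Tuba1c (chr15:99029891-99038110) lie side by side, the first 2 on the minus strand and Tuba1c on the plus strand. Tubb2a (chr13:34074274-34078007) and Tubb2b (chr13:34126748-34130466) are also neighbours, both on the minus strand. Neighbours share sequence as well as place, which bears on how reads are assigned. Of the 36-base windows in the longest transcript, 57.4% for Tuba1a, 68.2% for Tuba1b and 61.5% for Tuba1c also occurred in another of the 10 genes. The share was 49.3% for Tubb2a and 36.2% for Tubb2b. It was 1.80% for Tubb3, 1.51% for Tubb6, 0.689% for Tubb5 and 0% for Tuba4a and Tubb4b, although 61.2% of the Tubb4b windows also occur in other genes, led by its pseudogenes. How reads that match several genes were counted is not stated in any source consulted, so the split among Tuba1a, Tuba1b and Tuba1c, and between Tubb2a and Tubb2b, is uncertain. The pseudogene rows Tubb4b-ps1 and Tubb4b-ps2 averaged at most 0.201 TPM in any group.

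Promoters of 3 β-tubulin genes are shown because these genes part company below: Tubb4b and Tubb5 were high in Mki67-detected cells, and Tubb2a was not. Each is the 250 bases before the RefSeq start in GRCm38.p6, written 5′ to 3′ on the gene's strand, which is the minus strand for all 3. Tubb4b is at chr2:25224703-25224952, Tubb5 at chr17:35838302-35838551 and Tubb2a at chr13:34078009-34078258. Capitals mark CCAAT (or ATTGG, its reverse complement) and the cell-cycle homology element, searched as TTTGAA and TTCGAA on both strands. Both elements are known from promoters of genes transcribed late in the cell cycle.
Tubb4b: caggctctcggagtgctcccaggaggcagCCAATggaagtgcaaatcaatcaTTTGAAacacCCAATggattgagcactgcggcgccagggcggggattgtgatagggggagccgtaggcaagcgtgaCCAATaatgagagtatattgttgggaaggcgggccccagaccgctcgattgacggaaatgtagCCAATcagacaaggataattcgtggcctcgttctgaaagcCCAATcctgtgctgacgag
Tubb5: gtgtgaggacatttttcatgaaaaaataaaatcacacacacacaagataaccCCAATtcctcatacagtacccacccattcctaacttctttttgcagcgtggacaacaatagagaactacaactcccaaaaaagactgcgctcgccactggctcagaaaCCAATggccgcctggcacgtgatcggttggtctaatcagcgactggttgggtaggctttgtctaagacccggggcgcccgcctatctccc
Tubb2a: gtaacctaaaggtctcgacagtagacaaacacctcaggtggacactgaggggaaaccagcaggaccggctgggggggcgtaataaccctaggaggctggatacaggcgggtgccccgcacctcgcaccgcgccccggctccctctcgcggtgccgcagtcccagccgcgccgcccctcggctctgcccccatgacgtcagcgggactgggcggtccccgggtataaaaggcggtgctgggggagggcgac
The Tubb4b window held CCAAT 5 times and TTTGAA once, the Tubb5 window held CCAAT at 2 places, and the Tubb2a window held neither element. Of 32851 promoters of the same length, 33.8% held CCAAT at least once, 10.1% at 2 or more places and 0.213% at 5 or more, and 17.1% held the homology element. Promoters of 8 of the 10 genes were in the table. In the 5 other promoters CCAAT was found once each in Tuba1a, Tuba1c and Tubb3 and not in Tuba1b or Tuba4a, and the homology element in none. The windows follow RefSeq starts: those of Tuba1a, Tuba1b, Tubb3 and Tubb5 partly overlap the GENCODE gene, and that of Tuba4a lies wholly within it. A match is a run of letters, not a site, and Tuba1b, which was high in Mki67-detected cells, had no match in its window.

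Of the α-tubulins, Tuba1c and Tuba4a were found in nearly all cells of the keratinocyte-led groups, and Tuba1a in a share that differed widely between groups. Tuba1c, a widely expressed isotype, had medians of 110.3 TPM after transfer, 166.2 in reporter-positive, 75.1 in CD44+ reporter-negative, 78.3 in CD44-negative α6+ and 47.99 in α6-negative cells. Tuba4a, whose protein ends without the terminal tyrosine that other α-tubulins carry, had medians of 106.6, 112.8, 64.98, 106.6 and 10.3 TPM in the same order of groups. Both were detected in at least 95.6% of libraries of the after-transfer, reporter-positive and CD44-negative α6+ groups. Tuba1b, another widely expressed isotype, had medians of 38.2 TPM after transfer, 80.3 in reporter-positive, 165.4 in CD44+ reporter-negative, 106.8 in CD44-negative α6+ and 35.2 in α6-negative cells. The order of the groups for Tuba1b was thus another than for Tuba1c, with the CD44+ reporter-negative cells highest and the reporter-positive cells in the middle.

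Tuba1a, an isotype best known from developing neurons, was near absent in some groups and abundant in others. After transfer it was detected in 35.6% of cells, with a lowest value and a median of 0 and a highest value of 277.2 TPM. In reporter-positive cells it was detected in 83.8%, with a lowest value of 0, a median of 36.9 and a highest value of 577.7 TPM. It was detected in 8 of 15 CD44+ reporter-negative cells (median 2.43, highest 499.2 TPM), 30 of 91 CD44-negative α6+ cells (median 0, highest 181.5 TPM) and 32 of 43 α6-negative cells (median 46.5, highest 373.3 TPM). Single cells of all 5 groups overlapped, and the groups differed in how many cells held the transcript. As a share of the mean α-tubulin TPM, Tuba1a made up 3.32% after transfer, 14.96% in reporter-positive cells, 20.8% in CD44+ reporter-negative cells, 2.70% in CD44-negative α6+ cells and 35.4% in α6-negative cells.

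Among the β-tubulins, Tubb4b, found in many tissues and in cilia, made up 41.9% of the mean β-tubulin TPM after transfer, 38.7% in reporter-positive, 38.3% in CD44+ reporter-negative, 45.4% in CD44-negative α6+ and 35.9% in α6-negative cells. Tubb5 made up more than Tubb4b in the CD44+ gate, with 41.7%, and as much in α6-negative cells, with 35.9%. Tubb5, the broadly expressed isotype named TUBB in humans, had medians of 38.9 TPM after transfer, 128.5 in reporter-positive, 174.1 in CD44+ reporter-negative, 88.2 in CD44-negative α6+ and 61.6 in α6-negative cells. Its group order resembled that of Tuba1b in that the CD44+ reporter-negative cells had the highest median. Tubb6 was highest in reporter-positive cells, with a median of 137.6 TPM and a range of 12.4 to 563.97, and it was detected in 100% of them. Its medians were 48.1 TPM after transfer, 37.6 in CD44+ reporter-negative, 37.9 in CD44-negative α6+ and 0 in α6-negative cells, where 19 of 43 had it.

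Tubb2a and Tubb2b, near-identical isotypes that are abundant in brain, and Tubb3, the isotype used as a neuronal marker, were minor components. Tubb2a was detected in 66.1% of cells after transfer (median 9 TPM), 91.4% of reporter-positive (20.95), 8 of 15 CD44+ reporter-negative (1.06), 39 of 91 CD44-negative α6+ (0) and 25 of 43 α6-negative cells (6.35). The highest value of any of the 10 genes except Tubb4b was Tubb2a in 1 reporter-positive cell of plate CSC2, at 1873 TPM, where it exceeded the other 9 genes together, 1873 of 3360 TPM. Tubb2b was detected in 42.9% of cells after transfer, 78.1% of reporter-positive, 5 of 15 CD44+ reporter-negative, 19 of 91 CD44-negative α6+ and 16 of 43 α6-negative cells, with no value above 213.3 TPM. Tubb3 was on in some cells and off in most: it was detected in 45.8% of cells after transfer, 48.6% of reporter-positive, 1 of 15 CD44+ reporter-negative, 22 of 91 CD44-negative α6+ and 5 of 43 α6-negative cells, up to 281.8 TPM. The 6 neuron markers had a median sum of 0 TPM in each of the 5 groups, with a highest sum of 300.8 TPM in 1 α6-negative cell. For all 10 genes, groups that were neighbours in the order of medians had overlapping quartile ranges.

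**Figure D1:**
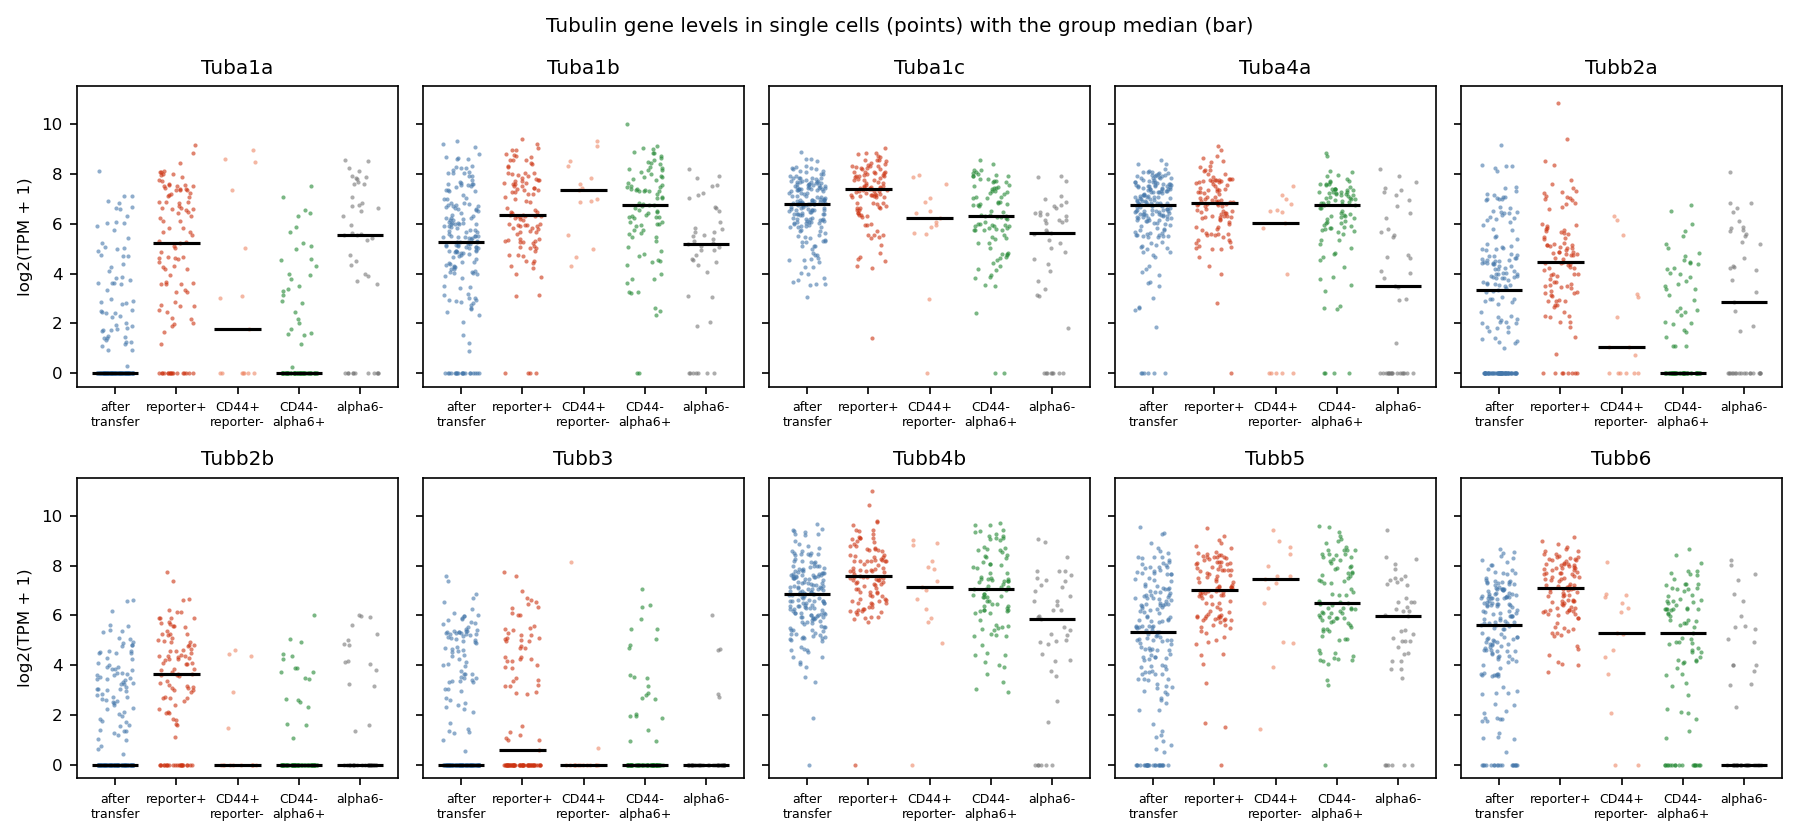
Level of each tubulin gene in single cells, as log2(TPM + 1), for the 5 groups; each point is 1 library and each bar the group median. Tuba1a, Tubb2a and Tubb2b have medians above 0 in the reporter-positive group and medians of 0 in the CD44-negative α6+ group, while Tuba1c and Tubb4b are present in nearly all cells of both.

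Reporter-positive cells were first set against the CD44-negative α6+ cells of the same strain. These gates differed in mCherry, CD34 and CD44 together and in plate, so reporter activity cannot be told apart from the rest. Fold changes are ratios of mean TPM with 1 TPM added, on a log2 scale. Higher by at least 2-fold were 5 of 10 tubulin genes and lower 0 of 10, beside 9.8% and 4.78% of all 11879 genes compared (14.6% together). Tuba1a averaged 83.5 TPM in reporter-positive and 10.5 TPM in CD44-negative α6+ cells, a log2 difference of 2.88. Tubb2a averaged 67.6 and 8.21 TPM (log2 difference 2.90), Tubb2b 22.1 and 3.07 TPM (2.50), Tubb3 19.4 and 6.61 TPM (1.43) and Tubb6 167.9 and 66.3 TPM (1.33), reporter-positive cells first. Single cells of both groups overlapped for each of these 5 genes. Tuba1b averaged 148.7 TPM in reporter-positive and 160.99 TPM in CD44-negative α6+ cells (log2 difference -0.11), and Tubb5 averaged 169.5 and 170.8 TPM (-0.01), so both had nearly the same mean in these groups. Mki67 was detected in 22.9% of the former and 50.5% of the latter. Among Mki67-absent cells Tuba1b averaged 99.6 and 70.6 TPM and Tubb5 136.2 and 83.4 TPM, reporter-positive cells first. Among Mki67-detected cells the means were 314.7 and 249.5 TPM for Tuba1b and 281.6 and 256.4 TPM for Tubb5. The part of the Mki67 share in the group means of Tuba1b and Tubb5 was not tested. The reporter-positive plates were not alike for all genes: the log2 difference of Tuba1a was 2.15 without CSC1 and 3.11 without CSC2, and that of Tubb2a was 3.91 without CSC1 and 2.05 without CSC2. Only the CD44-negative α6+ gate held cells of both kinds by Xist: against its cells with Xist only the Tuba1a difference was 2.57, and against those with Y-linked transcripts only 3.19.

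Against the 15 CD44+ reporter-negative cells, which shared CD44 with them, reporter-positive cells had 4 of 10 genes higher by at least 2-fold and 0 lower, beside 12.6% and 16.5% of all 12920 genes (29% together). They were Tuba4a (139.7 TPM in reporter-positive, 64.7 TPM in CD44+ reporter-negative cells, log2 difference 1.10), Tubb2a (67.6 and 14.4 TPM, 2.15), Tubb2b (22.1 and 4.81 TPM, 1.99) and Tubb6 (167.9 and 65.9 TPM, 1.34). Several of these values rest on the 3 CD44+ cells in which keratinocyte markers did not lead. In those 3 cells Tuba1a stood at 362.5, 394.1 and 499.2 TPM and Tuba4a at 0 in each, while the 12 keratinocyte-led cells averaged 17.5 TPM of Tuba1a, with a median of 0, and 80.9 TPM of Tuba4a. With keratinocyte-led cells only, the log2 difference of reporter-positive over CD44+ reporter-negative cells was 2.19 for Tuba1a, against -0.22 over all cells, 4.60 for Tubb2a, 4.28 for Tubb3 and 0.78 for Tuba4a. Without CSC2, Tuba4a was under 2-fold as well, at 0.80, and Tubb2a was at 1.30. Of the 15 CD44+ libraries 12 had Xist and no Y-linked transcripts, which no library of CSC1 or CSC2 had. Gate, plate and sex-linked transcripts thus differ together between these groups and cannot be told apart.

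CD44+ reporter-negative over CD44-negative α6+ cells gave 2 genes higher by at least 2-fold, Tuba1a (97.8 and 10.5 TPM, log2 difference 3.10) and Tubb3 (18.8 and 6.61 TPM, 1.38), and 0 lower, beside 16.8% and 6.19% of all 12604 genes (23% together). Both were high in the cells led by other markers. Tubb3 was detected in 1 of the 15 CD44+ cells, at 281.8 TPM, and in keratinocyte-led cells alone the differences were 0.69 for Tuba1a and -2.86 for Tubb3. Neither gene was at least 2-fold higher there, and the other 8 genes were under 2-fold over all cells.

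CD44-negative α6+ cells were compared with α6-negative cells, which lack the integrin of the basal layer. Tuba1b (160.99 TPM in CD44-negative α6+ and 61.6 TPM in α6-negative cells, log2 difference 1.37), Tuba4a (110.7 and 49.1 TPM, 1.16) and Tubb4b (211.98 and 97.6 TPM, 1.11) were higher by at least 2-fold. Tuba1a (10.5 and 93.3 TPM, -3.03), Tubb2a (8.21 and 29.6 TPM, -1.73) and Tubb2b (3.07 and 10.1 TPM, -1.45) were lower. The counts of 3 and 3 stand beside 8.67% and 25.7% of all 13499 genes (34.4% together). In the 17 α6-negative cells led by other markers, 15 of them by fibroblast markers, Tuba1a averaged 170.3 TPM and Tuba4a 1.86 TPM, against 42.97 and 79.96 TPM in the 26 keratinocyte-led ones. In both gates with mixed cells Tuba4a was thus high where keratinocyte markers led and low where they did not. With keratinocyte-led cells only, Tuba1a was still lower (-1.93), Tuba1b still higher (1.64) and Tubb6 higher at 1.69, while Tuba4a (0.46) and Tubb4b (0.58) were under 2-fold. The α6-negative libraries also had fewer genes and 2.78% of their TPM in spike-in RNA, the most of any plate, and the part of this in the differences was not tested.

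After transfer, 0 of 10 tubulin genes were higher and 3 lower by at least 2-fold than in reporter-positive cells, beside 3.15% and 8.6% of all 11703 genes (11.8% together). The 3 were Tuba1a (11.3 TPM after transfer, 83.5 TPM in reporter-positive cells, log2 difference -2.78), Tubb2b (6.92 and 22.1 TPM, -1.54) and Tubb6 (73.99 and 167.9 TPM, -1.17). All 10 differences were negative, with Tuba4a (118.8 and 139.7 TPM, -0.23) the smallest. With every library under its own label, which counts repeat libraries of reporter-positive cells as after transfer, Tuba1a was at -1.32, Tubb2b at -1.10 and Tubb6 at -0.72. Tuba1a was higher on OT2 than on OT_B, and its difference was -4.14 without OT2 and -2.08 without OT_B.

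**Figure D2:**
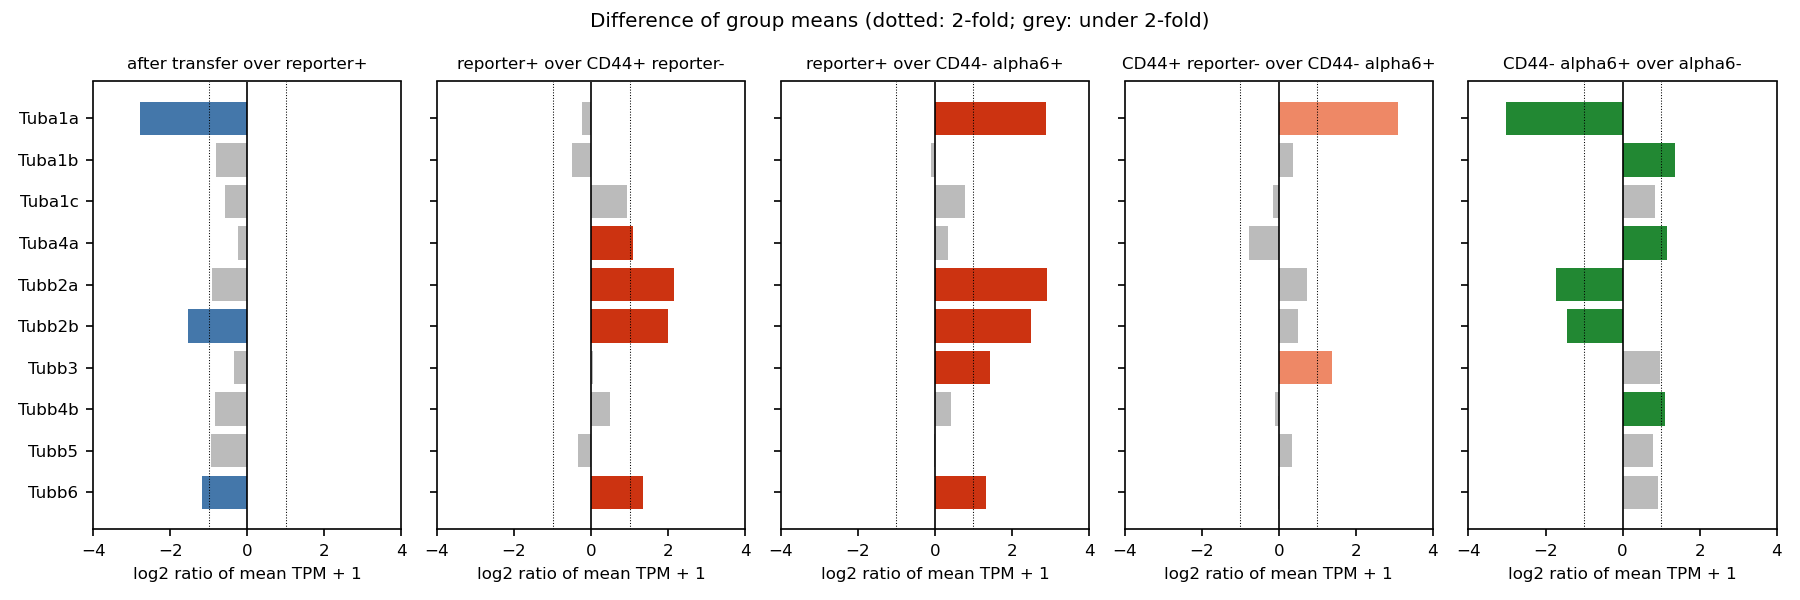
Log2 ratio of mean TPM + 1 for each tubulin gene in the 5 group comparisons; bars to the right are higher in the group named first, dotted lines mark 2-fold and grey bars are under 2-fold. Tuba1a, Tubb2a and Tubb2b show the widest bars, and Tuba1b and Tubb5 stay under 2-fold in every comparison but that with α6-negative cells, where Tuba1b is at 1.37.

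The sum over the 10 genes differed less between groups than its most variable members. It averaged 717 TPM after transfer (median 562.6, range 90.4 to 3178), 1286 TPM in reporter-positive cells (median 1094, range 219.8 to 3537), 988 TPM in CD44+ reporter-negative cells (median 732, range 235.7 to 2657), 857 TPM in CD44-negative α6+ cells (median 667, range 66.8 to 2910) and 535.9 TPM in α6-negative cells (median 452.8, range 16 to 1729). None of the 5 comparisons of the sum reached 2-fold: the log2 differences were -0.84 for after transfer over reporter-positive cells, 0.58 for reporter-positive over CD44-negative α6+ cells, 0.38 for reporter-positive over CD44+ reporter-negative cells, 0.20 for CD44+ reporter-negative over CD44-negative α6+ cells and 0.68 for CD44-negative α6+ over α6-negative cells. Past 2-fold were after transfer over reporter-positive cells without CSC1 (-1.03) or without OT2 (-1.04), and CD44-negative α6+ over α6-negative cells with libraries of any gene number (1.14). Across the alternatives tried, reporter-positive over CD44-negative α6+ cells ran from 0.09 to 0.78. Reporter-positive over CD44+ reporter-negative cells ran from 0.15 to 0.64. Quartile ranges of neighbouring groups overlapped. Mki67 detection, given below, differed between groups. In Mki67-absent cells the sum averaged 542.2 TPM after transfer, 1061 in reporter-positive, 469.4 in CD44-negative α6+ and 485.9 in α6-negative cells. In Mki67-detected cells it averaged 1137, 2047, 1237 and 916.4 TPM in the same order. The part of the Mki67 share in the group differences was not tested. The ratio of summed α- to summed β-tubulin means lay between 0.767 in reporter-positive and 0.969 in α6-negative cells. By medians the order differed, with α-tubulin above β-tubulin after transfer (287.1 and 272.6 TPM), in CD44-negative α6+ (323.1 and 321.7 TPM) and in α6-negative cells (232.5 and 213.7 TPM).

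Cells with detected Mki67 had a larger share of tubulin mRNA than the other cells of their group. Mki67, the antigen of cycling cells, was detected in 52 cells after transfer (29.4%, 95% interval 22.8 to 36.7), 24 reporter-positive cells (22.9%, 15.2 to 32.1), 13 of the 15 CD44+ reporter-negative cells (86.7%, 59.5 to 98.3), 46 of 91 CD44-negative α6+ (50.5%, 39.9 to 61.2) and 5 of 43 α6-negative cells (11.6%, 3.89 to 25.1). The exact binomial intervals cover counting error only. One pair of α6-negative libraries (r = 0.88) and one of the CD44+ gate (r = 0.91), all with Mki67, had profiles alike enough to be repeats, so the 5 and the 13 may each count 1 cell more than once; with the like pairs averaged, 4 and 12 remain. A like pair of CSC1 (r = 0.89) had no Mki67. Summed tubulin had a median of 1123 TPM in Mki67-detected and 456.9 TPM in Mki67-absent cells after transfer. The medians were 2201 and 906 TPM in reporter-positive, 1175 and 395.95 TPM in CD44-negative α6+ and 1089 and 446.6 TPM in α6-negative cells, Mki67-detected cells first. On means, the log2 difference of the sum was 1.07, 0.95, 1.40 and 0.91 in these 4 groups, and the ranges of both classes overlapped in each. The CD44+ gate had only 2 Mki67-absent cells, with sums of 343.6 and 1094 TPM, beside a median of 732 TPM in its 13 Mki67-detected cells, so no fold is given there.

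**Figure D3:**
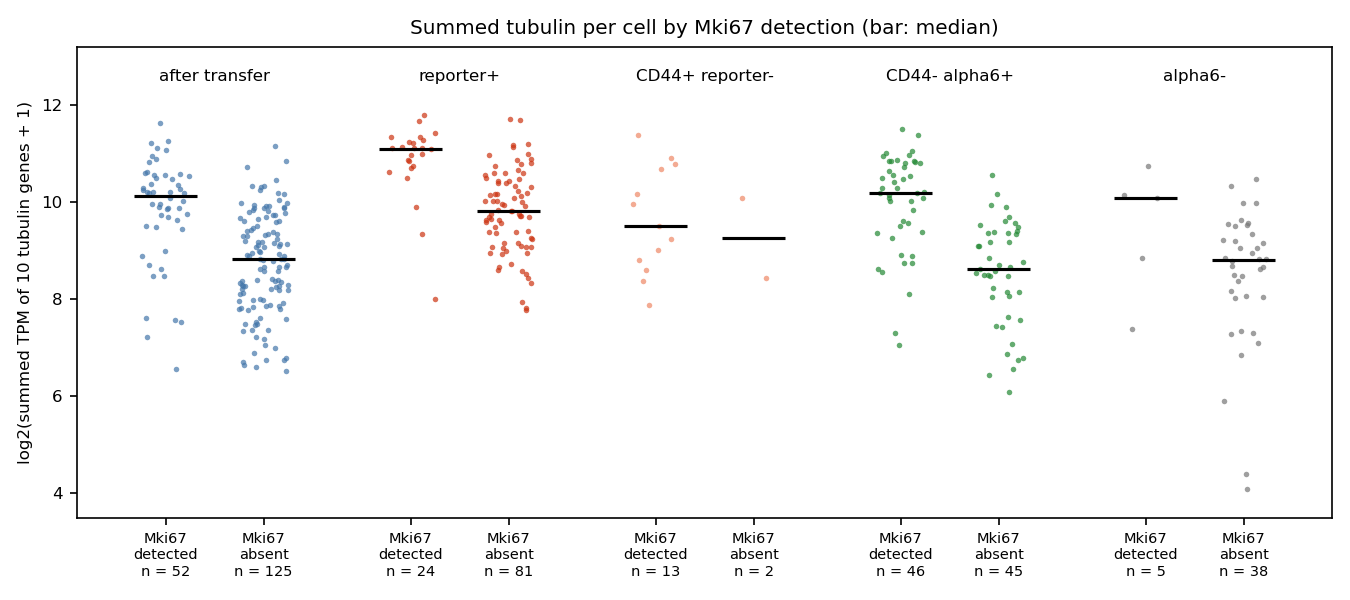
Summed TPM of the 10 tubulin genes per cell, as log2(sum + 1), for Mki67-detected (left) and Mki67-absent (right) cells of each group; points are libraries and bars medians. The median is higher in Mki67-detected cells in the 4 groups compared, 2201 against 906 TPM in reporter-positive cells for example, with wide overlap.

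Isotypes differed in how they stood with Mki67. Tuba1b and Tubb5 were higher in Mki67-detected cells in all 4 groups compared, the α6-negative group resting on 5 cells. Of these 5, 3 were led by other than keratinocyte markers, and Mki67 reached at most 1.15 TPM in keratinocyte-led α6-negative cells. With like pairs averaged 4 cells remain, under the minimum of 5 set per class, so this group adds little to the other 3. Tuba1b had a median of 158.3 TPM (range 0 to 640.5) in Mki67-detected and 29.02 TPM (0 to 271.3) in Mki67-absent cells after transfer, a log2 difference of means of 2.14. In reporter-positive cells the medians were 287.2 TPM (17.8 to 687.7) in Mki67-detected and 63.3 TPM (0 to 414.04) in Mki67-absent cells (1.65), and in CD44-negative α6+ cells 219.6 TPM (22.02 to 1026) and 53.3 TPM (0 to 334.9), a difference of 1.81. The ranges overlapped, and in each of these 3 groups some Mki67-absent cells lay above the median of the Mki67-detected ones. Tubb5 differed by 2.01 after transfer, 1.04 in reporter-positive, 1.61 in CD44-negative α6+ and 1.73 in α6-negative cells. The reporter-positive value for Tubb5 lay at the 2-fold line and was 0.62 with Top2a, another gene of dividing cells, in place of Mki67. Mki67-absent cells had a median of 23.4 TPM of Tubb5 after transfer and 111.2 TPM in the reporter-positive group.

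Tubb4b was higher by 1.32 after transfer, 1.39 in reporter-positive and 1.62 in CD44-negative α6+ cells, on the log2 scale. In the 5 Mki67-detected α6-negative cells it was not (-0.18): their Tubb4b values were 17.6, 74.3, 84.2, 95.5 and 165.8 TPM, against a mean of 98.98 TPM in the 38 Mki67-absent ones. Markers other than keratinocyte ones led in 3 of these 5 cells. Tubb6 was higher by 1.10, 0.77, 1.46 and 2.57 in the after-transfer, reporter-positive, CD44-negative α6+ and α6-negative groups. Tuba1c was higher by 0.58, 0.83 and 1.32 in the first 3 of these groups and stood at -0.60 in the last, and Tuba4a stayed between -0.10 and 0.74.

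Tuba1a, Tubb2a, Tubb2b and Tubb3 had no common direction with Mki67 across the groups. Tuba1a differed by 0.21 after transfer, -0.37 in reporter-positive, -0.21 in CD44-negative α6+ and 0.84 in α6-negative cells. Tubb2a averaged 17.6 TPM in Mki67-detected and 43.1 TPM in Mki67-absent cells after transfer (-1.24), and the differences were -0.33 in reporter-positive, 0.02 in CD44-negative α6+ and 0.29 in α6-negative cells. The reporter-positive value turned on the 1873 TPM cell, which lacked Mki67: without it the difference was 0.21. With that cell kept, the medians were 27.9 TPM in Mki67-detected and 18.4 TPM in Mki67-absent cells, and the difference of means was -1.76 on CSC2 alone and 0.93 on CSC1 alone. Tubb2b was lower by at least 2-fold in Mki67-detected CD44-negative α6+ cells (1.42 and 4.76 TPM, -1.25), where 7 of 46 Mki67-detected and 12 of 45 Mki67-absent cells had it. Tubb3 averaged 31.2 TPM in Mki67-detected and 15.96 TPM in Mki67-absent reporter-positive cells (0.92), a larger difference than that of Tubb6 there, and was detected in 66.7% and 43.2% of them. In the other groups Tubb3 stood at -0.12 after transfer, -0.36 in CD44-negative α6+ and -2.09 in α6-negative cells, where it was listed at 0 in the 5 Mki67-detected ones. By count, 4 genes were higher and 1 lower after transfer (5.81% and 3.38% of all 11407 genes, 9.2% together), 3 and 0 in reporter-positive cells (5.81% and 6.33% of 11794, 12.1% together), 5 and 1 in CD44-negative α6+ cells (6.21% and 3.82% of 11453, 10% together) and 3 and 1 in α6-negative cells (25.9% and 31.1% of 13801, 56.9% together), where only 5 cells had Mki67. Since Mki67 chose the genes, nothing is read from these counts.

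**Figure D4:**
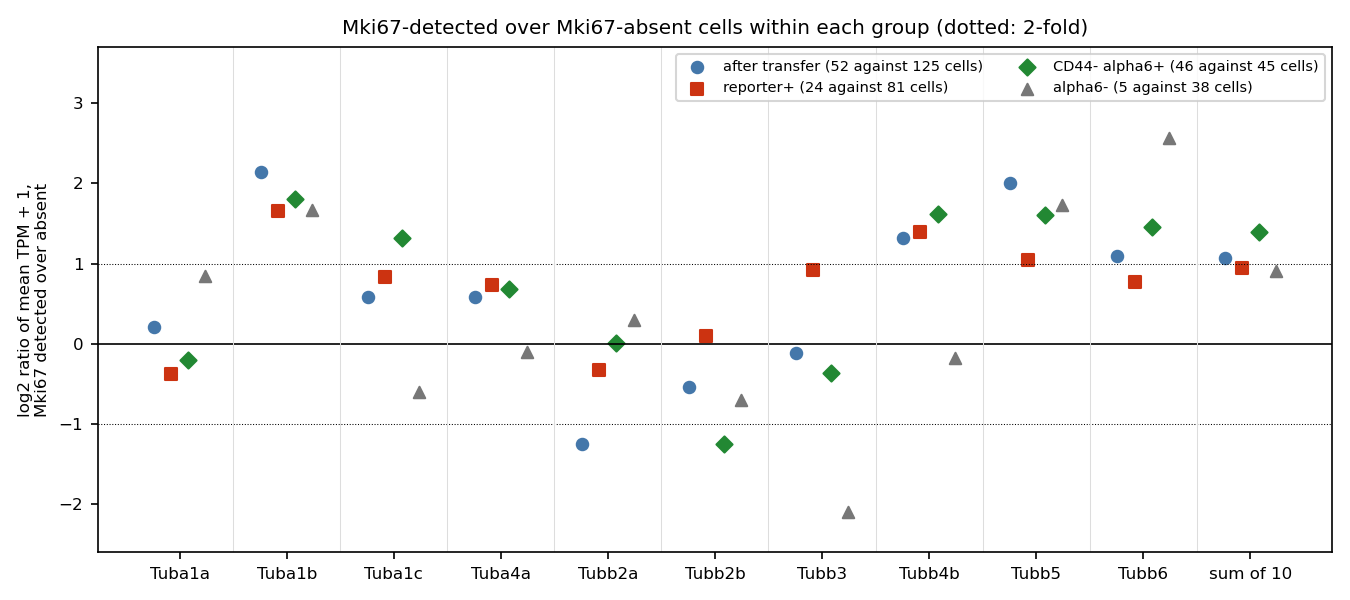
Log2 ratio of mean TPM + 1 in Mki67-detected over Mki67-absent cells for each tubulin gene and their sum, with 1 symbol per group; the CD44+ reporter-negative gate is not drawn because only 2 of its cells lacked Mki67. Tuba1b and Tubb5 lie above the upper 2-fold line in all 4 groups, Tubb5 of reporter-positive cells only just (1.04), and Tubb2a and Tubb2b scatter around and below 0. The α6-negative symbols rest on 5 Mki67-detected cells, 3 of them led by other than keratinocyte markers.

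Library complexity moved with Mki67 in some groups. The median number of genes was 6942 in Mki67-detected and 6466 in Mki67-absent cells after transfer, 7744 and 7760 in reporter-positive, 7179 and 6426 in CD44-negative α6+ and 6402 and 5520 in α6-negative cells. Among libraries with 6000 to 8000 genes only, the log2 difference of summed tubulin was 0.79 after transfer. It was 0.85 in reporter-positive and 1.44 in CD44-negative α6+ cells. The part of library complexity in the Mki67 differences was not tested. With libraries of any gene number the CD44-negative α6+ value was 0.46, under 2-fold, against 1.40 with at least 2000 genes. That plate had 96 libraries, of which 91 were kept, so the 2 values differ only by the few libraries under 2000 genes. Within plates it was 1.16 on OT_B and 0.96 on OT2, and 0.90 on CSC2 and 0.95 on CSC1.

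The second libraries allowed the same cells to be read again. Pairs of libraries that shared a well name and were each other's best match numbered 47 of 71 for OT2, 43 of 68 for OT_B, 71 of 72 for CSC1, 29 of 30 for CSC2 and 14 of 15 for the CD44+ gate. Keeping best matches selects for likeness. Over all pairs that share a well name, summed tubulin had r = 0.98 for CSC1, 0.96 for CSC2, 0.98 for the CD44+ gate, 0.84 for OT2 and 0.39 for OT_B. Over the best-matched pairs summed tubulin had a Pearson r of 0.96 on the log2(TPM + 1) scale and a median difference of 0.18 log2 units between libraries. Single genes ranged from r = 0.86 for Tuba4a to 0.98 for Tubb3, and the Mki67 call was the same in 92.6% of pairs. Mki67 was then taken from the first library and tubulin from the second, so that both no longer came from 1 library. After transfer, with 31 Mki67-detected and 59 Mki67-absent cells, the log2 difference of summed tubulin was 1.13 by the second libraries and 1.08 by the first. In reporter-positive cells, with 24 and 76 cells, it was 0.87 by the second libraries and 0.90 by the first. For Tuba1b the second libraries gave 1.94 after transfer and 1.62 in reporter-positive cells, and for Tubb5 2.17 and 1.02, the first libraries of the same reporter-positive cells giving 0.98 for Tubb5. For Tubb2a they gave -1.11 after transfer and -0.75 in reporter-positive cells, the last being -0.26 in the second and 0.14 in the first libraries without the 1873 TPM cell. The matched libraries share the cell, and the labels do not give the step at which they were split. They therefore measure only the technical spread after that step and say nothing of the spread between animals.

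**Figure D5:**
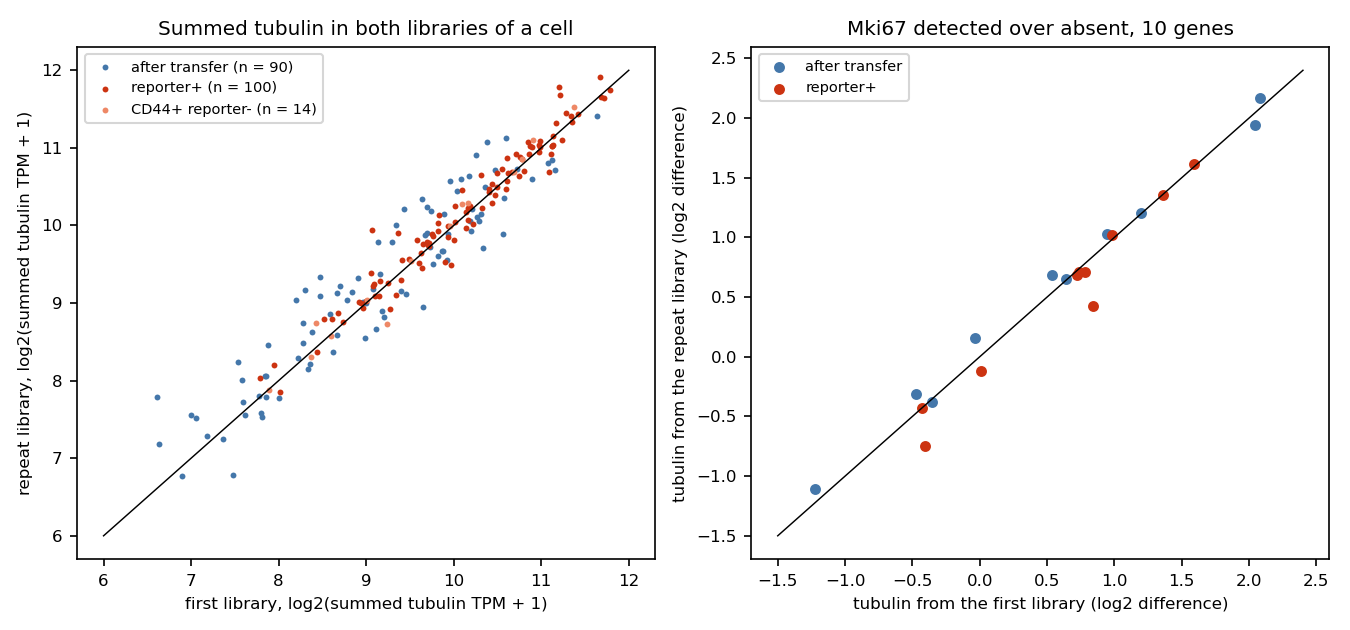
Left, log2(summed tubulin TPM + 1) of the matched cells in the first and the repeat library, with the line of equality. Right, log2 difference between Mki67-detected and Mki67-absent cells for each of the 10 genes, with Mki67 from the first library and tubulin from the first (x axis) or the repeat library (y axis), with the line of equality. Most genes lie near it, and Tubb3 (0.84 and 0.43) and Tubb2a (-0.41 and -0.75) of the reporter-positive cells lie below it, the Tubb2a point being 0.14 and -0.26 without its highest cell.

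How the isotypes moved together from cell to cell was described by Pearson's r of log2(TPM + 1) over all cells of the 5 groups after each group's mean was subtracted. Such values also carry the depth that genes of 1 library share: summed tubulin itself had r = 0.35 with the number of genes detected. The pairs with the highest r were Tuba1c and Tubb4b (0.64), Tuba1c and Tuba4a (0.62), Tuba1b and Tubb5 (0.61) and Tuba4a and Tubb4b (0.58). Tubb2a had its highest r with Tubb2b (0.50) and Tubb3 (0.46), then 0.36 with Tuba1c, 0.35 with Tubb4b, 0.33 with Tubb6 and 0.31 with Tuba4a, and -0.07 with Tubb5 and -0.01 with Tuba1b. Tuba1a had its highest r with Tubb5 (0.34) and Tuba1b (0.34), and 0.08 with Tuba1c. Tuba1b and Tuba1c, each the other's first gene by shared windows, had 0.36. The part of read assignment in these values was not tested.

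Outside the tubulins, the 8 genes most like the sum among 9969 genes detected in at least 20% of cells were Actb (r = 0.58), Birc5 (0.55), Mki67 (0.53), Ube2c (0.53), Anln (0.53), Ccnb1 (0.52), Ccna2 (0.52) and Plk1 (0.52). Actb encodes cytoplasmic actin, and the other 7 are known as genes of the cell cycle: Birc5 encodes survivin, Ube2c a ubiquitin enzyme of mitotic exit, Anln the cytokinesis protein anillin, Ccnb1 and Ccna2 cyclins and Plk1 a mitotic kinase.

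Genes that act on tubulin were followed as lists. Motors and organisers of the spindle were higher by at least 2-fold with Mki67 in 18 of 20 genes after transfer, 19 of 20 in reporter-positive and 19 of 20 in CD44-negative α6+ cells, with median log2 differences of 2.26, 2.57 and 2.60 beside 0.17, -0.04 and 0.10 over all genes, of which 5.81%, 5.81% and 6.21% were higher. Plk1, for example, averaged 18.9 TPM in Mki67-detected and 0.105 TPM in Mki67-absent cells after transfer. These genes are themselves cell-cycle genes, and their median differences were larger than the difference of summed tubulin. In reporter-positive over CD44+ reporter-negative cells 13 of 20 were lower and 0 higher, beside 16.5% and 12.6% of all genes, with Kif11, the motor that pushes spindle poles apart, at 0.929 and 6.95 TPM. In CD44-negative α6+ over α6-negative cells 16 of 20 were higher and 0 lower, beside 8.67% and 25.7% of all genes.

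The machinery that folds tubulin gave counts too small to read against those of all genes. Of the 20 genes for the chaperonin subunits, prefoldins and folding cofactors, 0 of 19 measured after transfer, 0 of 20 in reporter-positive and 1 of 19 in CD44-negative α6+ cells were at least 2-fold higher with Mki67, the gene being Tbce, a cofactor of α-tubulin (11.9 and 4.74 TPM), and none was lower, beside 5.81%, 5.81% and 6.21% of all genes higher. Against CD44+ reporter-negative cells, reporter-positive cells had 4 of 20 higher and 1 lower, beside 12.6% and 16.5% of all genes, the higher ones including Tbca (89.3 and 38.2 TPM) and Tbcb (66.1 and 28.3 TPM), cofactors of β- and α-tubulin. The γ-tubulin ring complex, which seeds new microtubules, had 1 of 9 measured genes higher with Mki67 in each of the after-transfer, reporter-positive and CD44-negative α6+ groups, beside 5.81%, 5.81% and 6.21% of all genes, and 0 of 9 apart in reporter-positive over CD44-negative α6+ cells.

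Of the proteins that take microtubules apart, Stmn1, which binds free tubulin dimers, averaged 32.7 TPM in Mki67-detected and 4.83 TPM in Mki67-absent cells after transfer (log2 difference 2.53), 30.4 and 9.01 TPM in reporter-positive (1.65) and 72.7 and 14.9 TPM in CD44-negative α6+ cells (2.22). With Kif2c, a depolymerising kinesin, it was the higher pair among 8, 8 and 7 measured destabilisers in these groups, beside 5.81%, 5.81% and 6.21% of all genes higher, and Kif2a was lower in reporter-positive cells (1.68 and 5.85 TPM, -1.36). Reporter-positive over CD44-negative α6+ cells had 1 of 8 higher, Stmn2 (4.004 and 0.580 TPM), and 1 lower, Stmn1 (13.9 and 44.1 TPM), beside 9.8% and 4.78% of all genes. Among 18 measured microtubule-associated and plus-end proteins 4 were higher in that comparison and 0 lower, beside 9.8% and 4.78% of all genes, including Map4, which coats microtubules outside neurons (94.9 and 32.6 TPM, 1.52), and the plus-end protein Mapre2 (11.2 and 2.81 TPM, 1.68). With Mki67, 1 of 17 measured genes of this list was higher and 0 lower after transfer, and 2 of 20 and 0 in reporter-positive cells. In CD44-negative α6+ cells 1 of 17 was higher and 1 lower. Of all genes 5.81%, 5.81% and 6.21% were higher and 3.38%, 6.33% and 3.82% lower. Ckap5, a microtubule polymerase, was higher after transfer (11.7 and 4.80 TPM, 1.14) and in reporter-positive cells (16.3 and 5.46 TPM, 1.42). In CD44-negative α6+ cells Ckap5 was higher too (18.5 and 6.83 TPM, 1.31). The lower gene there was Mapre3 (4.24 and 13.4 TPM, -1.46), which stood at -0.88 after transfer.

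Enzymes that modify tubulin gave counts too small to read against those of all genes. In reporter-positive over CD44-negative α6+ cells 1 of 14 measured was higher, Hdac6, a tubulin deacetylase (16.7 and 7.17 TPM, 1.11), and 0 were lower, beside 9.8% and 4.78% of all genes. In Mki67-detected CD44-negative α6+ cells 2 of 13 were higher, beside 6.21% of all genes: Ttl, the tubulin tyrosine ligase (3.25 and 0.891 TPM, 1.17), and Agbl5, a deglutamylase (5.87 and 2.28 TPM, 1.07). Ttc5, the autoregulation factor, averaged 3.11 TPM in Mki67-detected and 3.58 TPM in Mki67-absent cells after transfer, 6.79 and 4.34 TPM in reporter-positive and 4.12 and 4.45 TPM in CD44-negative α6+ cells, each under 2-fold. Between groups Ttc5 stood at 1.25 in reporter-positive over CD44+ reporter-negative cells (4.90 and 1.49 TPM). It stood at -1.09 in CD44+ reporter-negative over CD44-negative α6+ cells (1.49 and 4.28 TPM). In CD44-negative α6+ over α6-negative cells it stood at -1.14 (4.28 and 10.7 TPM). Reporter-positive over CD44-negative α6+ cells (0.16) and after transfer over reporter-positive cells (-0.41) were under 2-fold.

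Other tubulin rows were low. Tuba8, an α-tubulin outside the list, was detected in 8 of 15 CD44+ reporter-negative, 72 of 91 CD44-negative α6+ and 14 of 43 α6-negative cells, and group means ran from 4.33 to 9.35 TPM. Tubg1, the main γ-tubulin, averaged 6.39 TPM after transfer, 8.89 in reporter-positive, 6.34 in CD44+ reporter-negative, 10.5 in CD44-negative α6+ and 4.85 in α6-negative cells. Tuba3a, Tubal3 and Tubb1, the last the isotype of platelets, were listed at 0 in every cell, and Tuba3b was detected in 0. Tubb4a, a brain isotype, was detected in 2 cells after transfer, 1 reporter-positive, 0 of the CD44+ gate, 1 CD44-negative α6+ cell and 2 cells of the α6-negative gate. Its highest value was 101.3 TPM, in the α6-negative gate.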

How the data were processed

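Single-cell libraries were analysed from 2 tables of TPM, deposited by the authors as values per gene and library. The submitters' processing notes name Bowtie2 2.2.9, RSEM 1.2.30 and the build mm10. How they treated multi-mapping reads is not stated there. Read depth is unknown from TPM, and the number of detected genes (TPM of at least 1) is given in its place. Libraries with at least 2000 genes were kept. Wells, not animals, are labelled, so each group was 1 sample, and p-values were not computed. The members and gene lists were chosen with earlier results of these data known. Named were the 10 genes, the 3 members of each list with the largest difference, other tubulin rows and the 8 genes most like the sum. Folds were ratios of mean TPM plus 1, over genes with a mean of at least 1 TPM in a group compared. The calculation was also run on simulated data with planted differences. These data had no added zeros and larger classes than several used here, so they check the calculation only. Marker lists led a library by the highest mean log2(TPM + 1). Second libraries were matched by well name and mutual best correlation. Python 3.11.15, numpy 2.4.6, pandas 2.3.3 and scipy 1.17.1 were used.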

Additional observations from a re-analysis of the deposited data

How the results depend on the processing

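Across the alternatives tried, summed tubulin kept its direction in all but 2 values and single genes past 2-fold in all but 6. Over all single genes and family sums, small differences included, 68 values (5.25%) turned, among them Tubb2a in CD44+ reporter-negative over CD44-negative α6+ cells (0.74, and -1.70 in keratinocyte-led cells). The 2 were CD44+ reporter-negative over CD44-negative α6+ cells, 0.20 on the log2 scale, with -0.35 for libraries of any gene number and -0.05 in keratinocyte-led cells. The count of genes at least 2-fold apart moved by over 1.5 times as follows. CD44+ reporter-negative over CD44-negative α6+ cells gave 2, and 1 with a pseudocount of 10 TPM or against Xist-only cells. Mki67 after transfer gave 5, and 3 with that pseudocount, with 6000 to 8000 genes or with Top2a for Mki67. Mki67 in reporter-positive cells gave 3, 6 on mean logs or with Mki67 at 10 TPM, and 7 with libraries of any gene number or without CSC1. After transfer over reporter-positive gave 3, 6 on mean logs or without OT2, and 5 without CSC1. Reporter-positive over CD44+ reporter-negative gave 4, and 7 on mean logs. The log2 difference of summed tubulin with Mki67 in CD44-negative α6+ cells was 1.40, 0.46 with libraries of any gene number and 0.72 with Top2a. With libraries of any gene number, signs turned there for Tuba1c (-1.51) and the α-tubulin sum (-0.30), both Mki67-detected over Mki67-absent, and for Tuba4a in reporter-positive over CD44+ reporter-negative cells (-0.23). In reporter-positive over CD44-negative α6+ cells signs turned as well, at the lowest of the alternatives. Tuba1c fell from 0.78 to -1.13, the α-tubulin sum from 0.52 to -0.24 and Tuba4a from 0.33 to -0.44. Tubb3 in CD44+ reporter-negative over CD44-negative α6+ cells turned to -0.37 on mean logs, -2.95 with 6000 to 8000 genes and -2.86 in keratinocyte-led cells. The causes were not tested. Alternatives on Xist, similar libraries, second libraries and the cell highest in Tubb2a were chosen after seeing the data. The Mki67 split of the CD44+ gate, and of α6-negative cells under stricter filters, had too few cells. No paired analysis was possible because no animal or replicate number is labelled.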
